A study of Homo sapiens with 2 samples.

Results

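The Notch receptors NOTCH1, NOTCH2 and NOTCH3, the ligands JAG1, JAG2 and DLL1, the nuclear factors MAML1 and RBPJ and the target genes HES1 and HEY1 were described in NCI-H460 cells given an siRNA against CYP4F11. These 10 genes were taken by symbol from a table of 58735 genes, and each symbol matched 1 row. NCI-H460 is a large cell lung carcinoma line from a pleural effusion, and the series text also writes it as NCI-H469. One library came from cells transfected with CYP4F11 siRNA by lipofectamine RNAiMAX and collected at 24 h, labelled CYP4F11 knockdown and called siCYP4F11 here. The other is labelled siControl and WT. Its treatment label says that no siRNA against CYP4F11 was given and names no control sequence. Both libraries carry the same batch label, and both cultures grew in RPMI-1640 with fetal bovine serum. There was 1 library per group, so no difference below has a replicate check or a p-value, and the values describe this pair of cultures.

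Notch signalling passes between touching cells. A ligand of the Jagged or Delta type on one cell binds a Notch receptor on its neighbour, an ADAM protease and then gamma-secretase cut the receptor, and the freed intracellular part enters the nucleus. There it joins the DNA-binding protein RBPJ and a Mastermind co-activator such as MAML1, and genes of the HES and HEY families of repressors are switched on. Without the receptor fragment, RBPJ recruits co-repressors to the same sites. In the airway the pathway is known for setting the balance of secretory, ciliated and neuroendocrine cells. CYP4F11 encodes a cytochrome P450 that hydroxylates fatty acids, and the series concerns the effect of its depletion on growth and migration of lung cancer cells.

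The bases just before the start sites are shown for HES1, the textbook target whose promoter carries RBPJ sites, for RBPJ itself, and for NOTCH1 and NOTCH3, the receptors with the lowest ratios. Each sequence is the 250 bases before a RefSeq start on GRCh38.p14, read in the direction of the gene. Capitals mark TGGGAA, the core letters that RBPJ recognises, or TTCCCA, the same letters on the other strand. The HES1 window is chr3:194135898-194136147 on the plus strand, and the RBPJ window shown, 1 of 5, is chr4:26319496-26319745 on the plus strand. The NOTCH1 window is chr9:136546049-136546298 and the NOTCH3 window chr19:15200996-15201245, both on the minus strand.
HES1: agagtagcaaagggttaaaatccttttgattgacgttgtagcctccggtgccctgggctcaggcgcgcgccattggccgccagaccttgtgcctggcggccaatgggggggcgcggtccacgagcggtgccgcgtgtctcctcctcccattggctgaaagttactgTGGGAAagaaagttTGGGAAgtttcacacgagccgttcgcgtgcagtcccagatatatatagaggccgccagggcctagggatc
RBPJ: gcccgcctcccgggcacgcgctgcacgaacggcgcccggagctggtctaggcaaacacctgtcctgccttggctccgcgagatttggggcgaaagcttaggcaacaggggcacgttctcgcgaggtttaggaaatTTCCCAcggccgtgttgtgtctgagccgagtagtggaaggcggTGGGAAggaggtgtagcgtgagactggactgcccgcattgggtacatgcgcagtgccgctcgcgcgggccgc
NOTCH1: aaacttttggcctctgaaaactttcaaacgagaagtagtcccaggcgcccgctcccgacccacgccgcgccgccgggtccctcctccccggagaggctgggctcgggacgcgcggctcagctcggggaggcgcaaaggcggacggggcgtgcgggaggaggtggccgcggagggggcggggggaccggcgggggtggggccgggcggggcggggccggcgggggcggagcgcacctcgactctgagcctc
NOTCH3: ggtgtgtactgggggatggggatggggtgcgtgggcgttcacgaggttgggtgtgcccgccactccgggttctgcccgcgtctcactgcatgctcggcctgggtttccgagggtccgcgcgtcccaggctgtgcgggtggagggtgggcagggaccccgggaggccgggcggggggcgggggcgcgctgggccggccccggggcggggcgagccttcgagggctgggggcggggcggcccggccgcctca

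The HES1 window held the letters 2 times, starting 84 and 70 bases before the start site and both on the strand shown. The RBPJ window also held them 2 times, at 115 bases before the start on the other strand and at 72 bases on the strand shown. RBPJ has 5 start windows in the RefSeq table, and the window shown is the only 1 of them that held the letters. The window at the start of the annotated gene, chr4:26163208-26163457, held none. The windows of NOTCH1 and NOTCH3 held none and were rich in G and C, at 76.0% and 78.0% against 59.2% for HES1. This was not particular to them. The windows of JAG2 at 81.6%, NOTCH2 at 72.8% and JAG1 at 68.4% also held none. Of the 10 genes, 8 had a window in the table, with 12 windows in all, and 2 of the 12 (16.7%) held the letters. Over all 35116 windows of this length, 20.8% held the letters at least once and 2.9% held them 2 or more times. A match in letters is a description and does not show binding.

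The siCYP4F11 library held 13002179 counts and the siControl library 16207785. CYP4F11, the siRNA target, had 972 counts against 3180, or 74.5 CPM against 197 CPM (counts per 1000000 of an effective library size). Its log2 ratio was -1.40 (95% counting interval -1.51 to -1.30), in the direction of the label. Keratins of a carcinoma line were abundant, with KRT19 at 1427 CPM in siCYP4F11 and 1746 CPM in siControl. Of 10 epithelial markers, 8 had a mean of at least 1 CPM, summing to 3005 CPM against 3596 CPM over the list, while CDH1 had 0 counts against 1 and EPCAM 8 against 6. Of 9 fibroblast and endothelial markers 4 were above that level, summing to 30.3 CPM against 21.4 CPM, and PECAM1, CDH5 and VWF had 0 counts in both. Within the epithelial list MUC1 was lower at -0.99 (-1.66 to -0.39) and CLDN4 higher at 0.34 (0.04 to 0.63). Within the fibroblast and endothelial list LUM was higher at 0.59 (0.32 to 0.86) and DCN at 0.77 (0.0079 to 1.56). DCN rests on 36 counts against 26, and after a correction for GC content its interval of -0.11 to 1.44 included 0. The intervals of COL1A1, with 33 counts against 34, and PDGFRB, with 65 against 72, included 0. Below that level, COL1A2 had 0 counts against 4 and KDR 6 against 1. Of 7 leukocyte markers 1 was above that level, CD14, with 33 counts against 20 at 1.01 (0.18 to 1.91), and PTPRC and CD3E had 0 counts in both. The part of these shifts in the results below was not tested. In bulk RNA, fewer cells that express a gene and less RNA per cell cannot be told apart.

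All 3 receptors were lower in the siCYP4F11 library, and so were JAG1 and MAML1. JAG2, DLL1, RBPJ, HES1 and HEY1 had ratios above 0, each with a counting interval that included 0. Differences were counted at log2 sizes of 1 (2-fold) and 0.32, and only where the 95% counting interval excluded 0. Genes with a mean of at least 1 CPM over both libraries are called measured, which was met by 13942 genes and by 9 of the 10, all but DLL1. None of the 9 was past 2-fold, where 0.703% of measured genes were past it on the higher side and 1.26% on the lower. Past 0.32 were NOTCH1 and NOTCH3 on the lower side, 2 of 9, against 8.62% of all measured genes. On the higher side there was none, against 6.92% of all measured genes. The counting interval lay wholly below 0 for 5 of the 9, against 19.2% of measured genes, and wholly above 0 for none, against 18.6%. Counting intervals narrow as counts grow. Among genes with a mean of at least 10 CPM, a level chosen after the values were seen, the shares were 5 of 7 against 23.1%. The median log2 ratio was -0.28 over the 9 measured genes, against -0.0055 over all measured genes. It was -0.08 with DLL1 added, since 5 of the 10 ratios lie below 0 and 5 above.

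**Figure D1:**
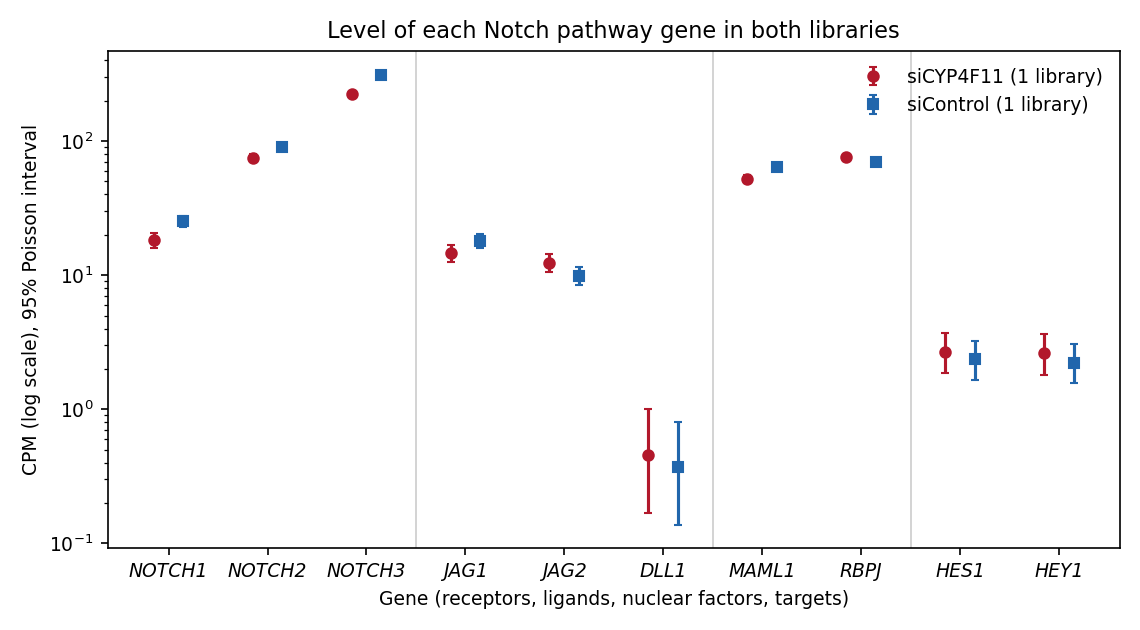
Level of each gene in CPM on a log axis, with the siCYP4F11 library as circles and the siControl library as squares, 1 library each, and bars for the 95% Poisson interval of the count. NOTCH3 sits highest in both libraries, at 224 CPM in siCYP4F11 and 311 CPM in siControl, and DLL1 lowest, at 0.460 CPM and 0.372 CPM.

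NOTCH3, a receptor that is prominent in vascular smooth muscle and in several carcinomas, was the most abundant of the receptors. It had 2923 counts in siCYP4F11 against 5024 in siControl, or 224 CPM (216 to 232) against 311 CPM (303 to 320). The Poisson intervals of the libraries did not overlap. The log2 ratio was -0.47 (-0.54 to -0.41), so the siCYP4F11 level was 71.9% of siControl. Among the 2062 genes with a mean of at least 100 CPM, the central 95% of log2 ratios ran from -0.38 to 0.32, and NOTCH3 lay below it. The other 8 measured genes lay inside the same range for genes of their own level. The gene (ENSG00000074181) lies on chromosome 19 from 15159038 to 15200981, minus strand, on GRCh38.

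NOTCH1, the receptor mutated in T cell leukaemia, had 239 counts in siCYP4F11 against 408 in siControl, or 18.3 CPM (16.1 to 20.8) against 25.3 CPM (22.9 to 27.9). The log2 ratio was -0.46 (-0.70 to -0.23), with Poisson intervals that did not overlap. This ratio differed little from that of NOTCH3. There were 12.2 NOTCH3 counts per NOTCH1 count in siCYP4F11 and 12.3 in siControl, a ratio of ratios of 0.993 (exact 95% interval 0.839 to 1.18) that does not depend on how the libraries are scaled. NOTCH1 (ENSG00000148400) lies on chromosome 9 from 136494433 to 136545786, minus strand.

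NOTCH2, a receptor with roles in B cells and the liver, had 976 counts in siCYP4F11 against 1463 in siControl, or 74.8 CPM (70.1 to 79.6) against 90.6 CPM (86.0 to 95.4). Its log2 ratio was -0.28 (-0.40 to -0.16), lower in siCYP4F11 but short of the 0.32 size. The counts of NOTCH3 per NOTCH2 count were 2.99 in siCYP4F11 against 3.43 in siControl, a ratio of ratios of 0.872 (0.794 to 0.958). After a correction for GC content it was 0.940, with an interval of 0.855 to 1.03 that included 1. For NOTCH1 over NOTCH2 it was 0.878, with an interval of 0.731 to 1.05 that also included 1. Of the 50-base words of NOTCH2, 23.4% also occur in other genes, most of all in NOTCH2NLA, a partial copy, so reads could be split between them. NOTCH2NLA had 15 counts in siCYP4F11 against 12 in siControl, and the sum of both genes was at -0.27 (-0.39 to -0.15). NOTCH2 (ENSG00000134250) lies on chromosome 1 from 119911553 to 120069626, minus strand.

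NOTCH3 made up most of the receptor counts in both libraries. Counts of NOTCH1 to NOTCH4 summed to 4181 in siCYP4F11 against 6948 in siControl, or 320 CPM against 430 CPM, a log2 ratio of -0.43 (-0.48 to -0.37). NOTCH3 took 69.9% of them in siCYP4F11 (exact binomial interval 68.5% to 71.3%) and 72.3% in siControl (71.2% to 73.4%). NOTCH2 took 23.3% in siCYP4F11 and 21.1% in siControl. NOTCH4 had 43 counts against 53.

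JAG1 and JAG2 had ratios of opposite sign. JAG1, the ligand altered in Alagille syndrome, had 190 counts in siCYP4F11 against 290 in siControl, or 14.6 CPM against 18.0 CPM. The log2 ratio was -0.30 (-0.58 to -0.03), and the Poisson intervals of the libraries overlapped. JAG2, a second Jagged ligand, had 161 counts against 159, or 12.3 CPM (10.5 to 14.4) against 9.85 CPM (8.38 to 11.5). Its log2 ratio was 0.32 and reached the smaller size, but the interval of -0.00082 to 0.65 just included 0, and the Poisson intervals overlapped. With total counts, DESeq2 size factors or upper-quartile scaling the value was 0.33 to 0.34 and the interval excluded 0. The contrast between these ligands does not depend on scaling. There were 0.847 JAG2 counts per JAG1 count in siCYP4F11 and 0.548 in siControl, a ratio of ratios of 1.54 (1.15 to 2.08). In JAG2, 469 of 6397 exon bases overlap AL512356.1, a transcript of the same strand with 0 counts in both libraries.

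DLL1, a Delta ligand, was near the limit of detection. It had 6 counts in each library, or 0.460 CPM against 0.372 CPM. The floor of 3 counts stood at 0.230 CPM in siCYP4F11 and 0.186 CPM in siControl, and the log2 ratio of 0.31 had an interval of -1.60 to 2.21. A difference in DLL1 was not detectable at this depth. The 3 ligands summed to 27.3 CPM against 28.2 CPM, a log2 ratio of -0.04 (-0.25 to 0.16). That sum leaves out the ligand DLL3, which is not among the 10 genes and had 98 counts against 105. JAG1 (ENSG00000101384) lies on chromosome 20 from 10637684 to 10673999, JAG2 (ENSG00000184916) on chromosome 14 from 105140981 to 105168824, and DLL1 (ENSG00000198719) on chromosome 6 from 170282206 to 170306565, all on the minus strand.

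MAML1 was lower in siCYP4F11, and RBPJ had a ratio above 0 that counting error does not tell from 0. MAML1, the co-activator that bridges the receptor fragment to histone acetyltransferases, had 681 counts in siCYP4F11 against 1041 in siControl. This was 52.2 CPM (48.3 to 56.2) against 64.5 CPM (60.6 to 68.5), with intervals that did not overlap and a log2 ratio of -0.31 (-0.45 to -0.17). RBPJ, the DNA-binding subunit, had 989 counts against 1123, or 75.8 CPM (71.1 to 80.6) against 69.6 CPM (65.6 to 73.8). Its log2 ratio was 0.12 with an interval of -0.0017 to 0.25 that just included 0, and the Poisson intervals overlapped. With the other scalings, as for JAG2, its interval lay just above 0, with a lower bound of 0.0021 to 0.0099. Counts of RBPJ per MAML1 count were 1.45 in siCYP4F11 and 1.08 in siControl, a ratio of ratios of 1.35 (1.18 to 1.53), or 1.17 (1.03 to 1.33) after a correction for GC content. RBPJ per NOTCH3 count gave a ratio of ratios of 1.51 (1.37 to 1.67), or 1.27 (1.15 to 1.40) corrected. MAML1 (ENSG00000161021) lies on chromosome 5 from 179732850 to 179777286 and RBPJ (ENSG00000168214) on chromosome 4 from 26163455 to 26435131, both on the plus strand.

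The targets HES1 and HEY1 had few reads and no difference that counting error allows to be told from 0. HES1, a repressor that holds back differentiation, had 35 counts in siCYP4F11 against 38 in siControl, or 2.68 CPM (1.87 to 3.73) against 2.35 CPM (1.67 to 3.23). The log2 ratio was 0.19 (-0.52 to 0.89). HEY1, a related repressor with roles in blood vessels and the heart, had 34 counts against 36, or 2.60 CPM (1.80 to 3.64) against 2.23 CPM (1.56 to 3.09), a log2 ratio of 0.23 (-0.50 to 0.94). Both genes summed to 69 counts against 74, a log2 ratio of 0.21 (-0.29 to 0.70). The summed receptors, at -0.43, lay outside that interval, which covers counting error only. Among the 2071 genes with a mean of 1 to 3 CPM, the central 95% of log2 ratios ran from -1.39 to 1.17, a range that includes -0.43. The sum, at 5.29 CPM against 4.58 CPM, compares with genes of 3 to 10 CPM, whose range of -0.88 to 0.74 also includes -0.43. These libraries thus resolve only large differences of single genes at the level of HES1 and HEY1. Counting error alone separates the summed targets from the summed receptors. The spread between cultures was not measured, so whether this exceeds it is not known. HES1 (ENSG00000114315) lies on chromosome 3 from 194136145 to 194138732, plus strand, and HEY1 (ENSG00000164683) on chromosome 8 from 79764010 to 79767863, minus strand.

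Per gene length, the order of the genes was led by NOTCH3 in both libraries. In TPM (counts per base of gene model, scaled to the same total in each library), siCYP4F11 had NOTCH3 at 75.7, MAML1 at 27.9, RBPJ at 26.0 and NOTCH2 at 14.1. JAG2 at 6.12, NOTCH1 at 5.60, JAG1 at 4.97, HES1 at 4.13, HEY1 at 2.56 and DLL1 at 0.452 followed. Poisson intervals overlapped between MAML1 and RBPJ and between each neighbouring pair from JAG2 down to HEY1. In siControl the order was NOTCH3 at 106, MAML1 at 34.6, RBPJ at 24.0, NOTCH2 at 17.2 and NOTCH1 at 7.76, with no overlap between neighbours. JAG1 at 6.16, JAG2 at 4.91, HES1 at 3.64 and then HEY1 overlapped each with the next, and DLL1 was at 0.367. MAML1 and RBPJ were thus separated in siControl and not in siCYP4F11. DLL3, outside the 10 genes, was at 9.10 TPM in siCYP4F11 and 7.92 TPM in siControl, above JAG1, JAG2 and DLL1 in both. In siControl its Poisson interval of 6.48 to 9.59 overlapped that of JAG1. Gene models count every annotated exon, which lowers the TPM of genes with long alternative ends.

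**Figure D2:**
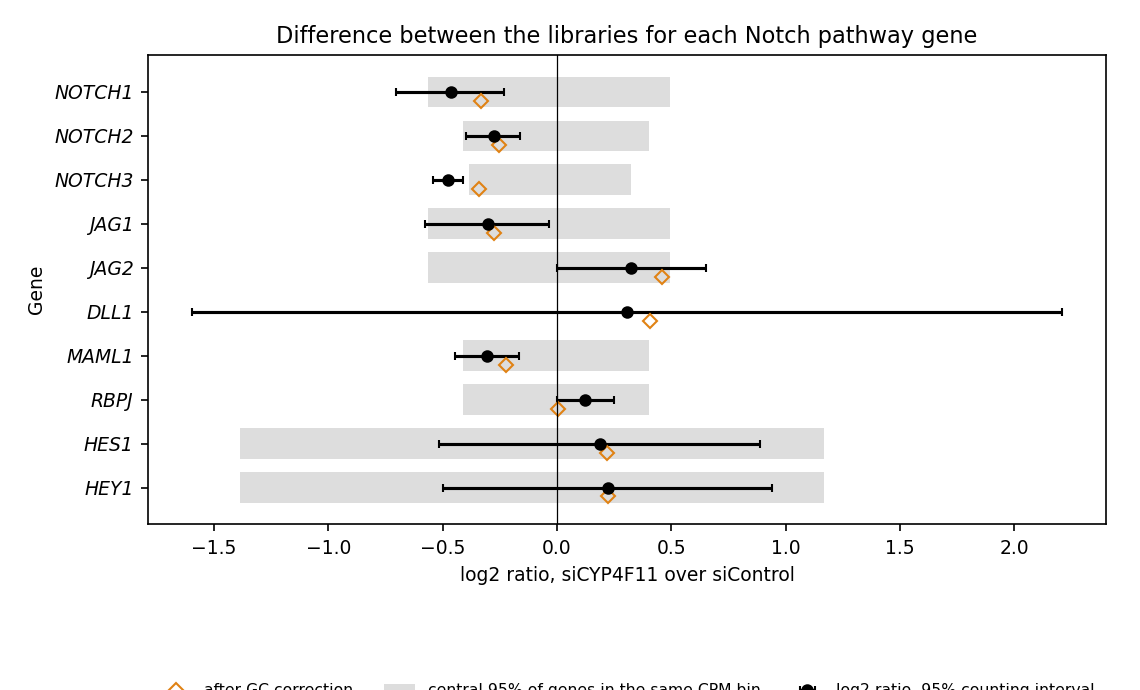
Log2 ratio of siCYP4F11 over siControl for each gene, with bars for the 95% counting interval, diamonds for the value after correction for GC content, and grey bands for the central 95% of measured genes in the same CPM bin (DLL1 is below the bins). The bands are of uncorrected ratios, so the diamonds are not to be read against them. The corrected range at the level of NOTCH3 starts at -0.34, where its diamond lies. NOTCH3 at -0.47 lies below its band, which starts at -0.38, and the other 8 measured genes lie inside theirs.

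Ratios in these libraries moved with base composition. Across 9590 genes with a mean of at least 10 CPM, the log2 ratio and the GC content of the longest transcript had a Spearman correlation of -0.42, a description over genes of the same 2 libraries. Ranked by GC content, the lowest 10% of these genes had a median log2 ratio of 0.15, and the highest 10%, from 60.9% GC upward, one of -0.13. NOTCH1 at 62.9%, NOTCH3 at 63.1% and JAG2 at 64.0% fall in that highest 10%, while RBPJ at 38.0% falls in the lowest 10%. After a lowess curve on GC content was subtracted, NOTCH3 was at -0.34 (-0.41 to -0.28) and NOTCH1 at -0.33 (-0.57 to -0.10), both still past the 0.32 size. The corrected NOTCH3 value equals, to 2 decimals, the lower end of the corrected central range of genes at its level. NOTCH2 was at -0.25, JAG1 at -0.28 and MAML1 at -0.22, each with an interval below 0. RBPJ was at 0.0027 (-0.12 to 0.13). JAG2 was at 0.46 (0.14 to 0.79), past the 0.32 size with its interval above 0 and inside the central 95% of corrected ratios of genes with a mean of 10 to 30 CPM, -0.54 to 0.47. HES1 and HEY1 were at 0.22 each.

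**Figure D3:**
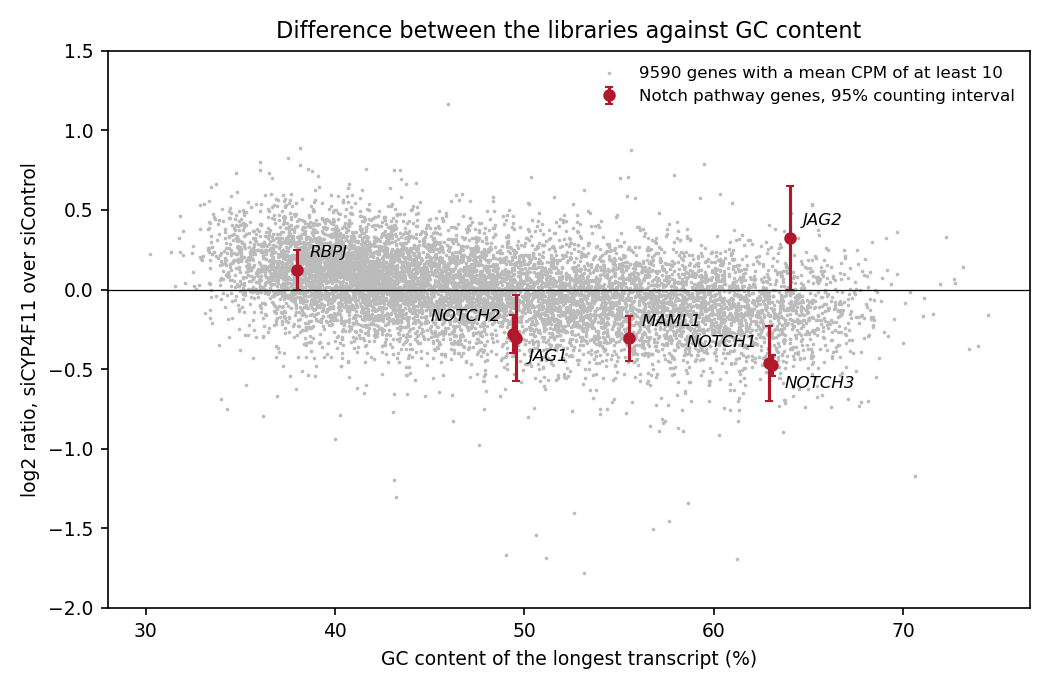
Log2 ratio of siCYP4F11 over siControl against the GC content of the longest transcript, with grey points for 9590 genes with a mean of at least 10 CPM and circles with 95% counting intervals for the 7 Notch genes at that level. The grey cloud slopes down from a median of 0.15 in the lowest 10% by GC content to -0.13 in the highest 10%, and JAG2 at 0.32 lies above the cloud's middle while NOTCH1 and NOTCH3 lie below it.

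Among the other genes of the pathway, more were lower than higher in siCYP4F11. Of 80 other pathway genes, 68 were measured, with a median log2 ratio of -0.08. None was past 2-fold, 13 were past 0.32 on the lower side and 2 on the higher. That is 19.1% and 2.94%, against 8.62% and 6.92% of all measured genes. After the GC correction the numbers were 8 and 2, or 11.8% and 2.94%, against 7.25% and 5.91% of all measured genes.

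Of 7 co-activators, all measured, 2 were past 0.32 and both lower, with a list median of -0.17. On that side 8.62% of all measured genes were past 0.32. EP300, a histone acetyltransferase that MAML1 recruits, had 783 counts in siCYP4F11 against 1303 in siControl and a log2 ratio of -0.43 (-0.56 to -0.30). MAML3, a relative of MAML1, had 428 counts against 734 and was at -0.47 (-0.65 to -0.30). Of 14 co-repressors 13 were measured, with a median of -0.17, and 3 were past 0.32, all lower, against the same 8.62%. SPEN, which links RBPJ to repressors, had 979 counts against 1794 and was at -0.57 (-0.68 to -0.45). TLE3, a Groucho co-repressor, was at -0.36 (-0.51 to -0.22). After the GC correction SPEN was at -0.52, MAML3 at -0.41, EP300 at -0.37 and TLE3, then short of 0.32, at -0.28. Corrected, 2 co-activators and 2 co-repressors were past 0.32 on the lower side, against 7.25% of all measured genes.

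Genes that make, cut and traffic the receptors went both ways. Past 0.32 on the lower side were 1 of 4 measured glycosylation genes, 1 of 9 proteases and 1 of 17 ubiquitination and trafficking genes. Of all measured genes, 8.62% were past it on that side. On the higher side there was 1 glycosylation gene, against 6.92% of all measured genes. After the GC correction the lower counts were 1, 1 and 0, against 7.25%. On the higher side there was then none, against 5.91%. Of 6 glycosylation genes 4 were measured, with a median of 0.09. RFNG, a Fringe enzyme that extends sugars on Notch, was lower at -0.53 (-0.78 to -0.28), with 203 counts against 362. EOGT, which adds N-acetylglucosamine to Notch repeats, was higher at 0.32 (0.01 to 0.63), with 179 counts against 177. After the GC correction RFNG was at -0.38 (-0.64 to -0.13), while EOGT was at 0.26 (-0.05 to 0.57) and no longer past 0.32. Of 9 protease genes, all measured, FURIN alone was past 0.32. FURIN, the convertase that makes the first cut in the receptor, had 974 counts against 1694 and was at -0.49 (-0.61 to -0.38), or -0.37 after the GC correction. The list median was 0.03, or -0.0083 after the GC correction, with the ADAM10 protease at 0.20 (0.10 to 0.30), or 0.08 (-0.02 to 0.19) corrected, and the gamma-secretase subunit NCSTN at 0.11 (0.04 to 0.19), both named after their values were seen. Of 18 ubiquitination and trafficking genes 17 were measured, with a median of 0.04. DTX2, a Deltex ubiquitin ligase, had 51 counts against 90 and was at -0.51 (-1.04 to -0.0018). Its corrected value was -0.38 (-0.91 to 0.13), with an interval that included 0. Of its 50-base words, 26.5% also occur in other genes.

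Other HES and HEY genes and other genes known as Notch targets lay mostly below 0. The HES and HEY list holds genes by family name, whether or not Notch induces them. Of 8 other HES and HEY genes 3 were measured, with HES4 at -0.35 (-0.62 to -0.09), HES7 at -0.37 (-0.63 to -0.12) and HES6 at 0.30 (0.05 to 0.55). That is 2 of 3 past 0.32 on the lower side and none on the higher, against 8.62% and 6.92% of all measured genes. HES4 had 194 counts in siCYP4F11 against 307 in siControl, HES7 211 against 338 and HES6 264 against 265. The GC correction moved HES4 to -0.20 (-0.47 to 0.06) and HES7 to -0.24 (-0.50 to 0.01), neither then past 0.32, and HES6 to 0.45 (0.20 to 0.70), then past it. Corrected, this was 0 of 3 lower and 1 of 3 higher, against 7.25% and 5.91% of all measured genes. HES3 and HES5 had 0 counts in both libraries, and HEY2 had 6 counts against 0. HES6 and these 3 genes were named after their values were seen. A list of 15 genes known as Notch targets in various cell types shares HES4 with the HES and HEY list and DTX1 with the ubiquitination list. Of these 15 genes 14 were measured, 11 of them below 0, against 50.8% of all measured genes below 0. The list median was -0.24, or -0.15 after the GC correction. Past 0.32 on the lower side were SOX9, MYC, PLAU and HES4, and on the higher side CDKN1A. That is 4 and 1 of 14, against 8.62% and 6.92% of all measured genes. After the GC correction it was 2 and 1, against 7.25% and 5.91%. SOX9, a progenitor transcription factor, had 809 counts against 1521 and was at -0.60 (-0.73 to -0.48). MYC, a growth regulator, had 5954 counts against 9373 and was at -0.35 (-0.40 to -0.30). PLAU, a plasminogen activator, was at -0.46 (-0.73 to -0.19), and CDKN1A, a cell cycle inhibitor, at 0.42 (0.31 to 0.54). After the GC correction SOX9 was at -0.56, PLAU at -0.39 and CDKN1A at 0.52, each still past 0.32, and MYC at -0.28 (-0.32 to -0.23), short of it. NRARP, a feedback inhibitor induced by Notch and named after its values were seen, had 31 counts against 36 and was at 0.09 (-0.65 to 0.82). Many of these genes answer to other pathways too. Of 6 further receptor and ligand entries 5 were found and 3 measured, and none was past 0.32, against 8.62% and 6.92% of all measured genes. DLK2, a non-canonical ligand, was at 0.31 (-0.66 to 1.28) and DLL3, an inhibitory Delta ligand, at 0.21 (-0.21 to 0.62).

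**Figure D4:**
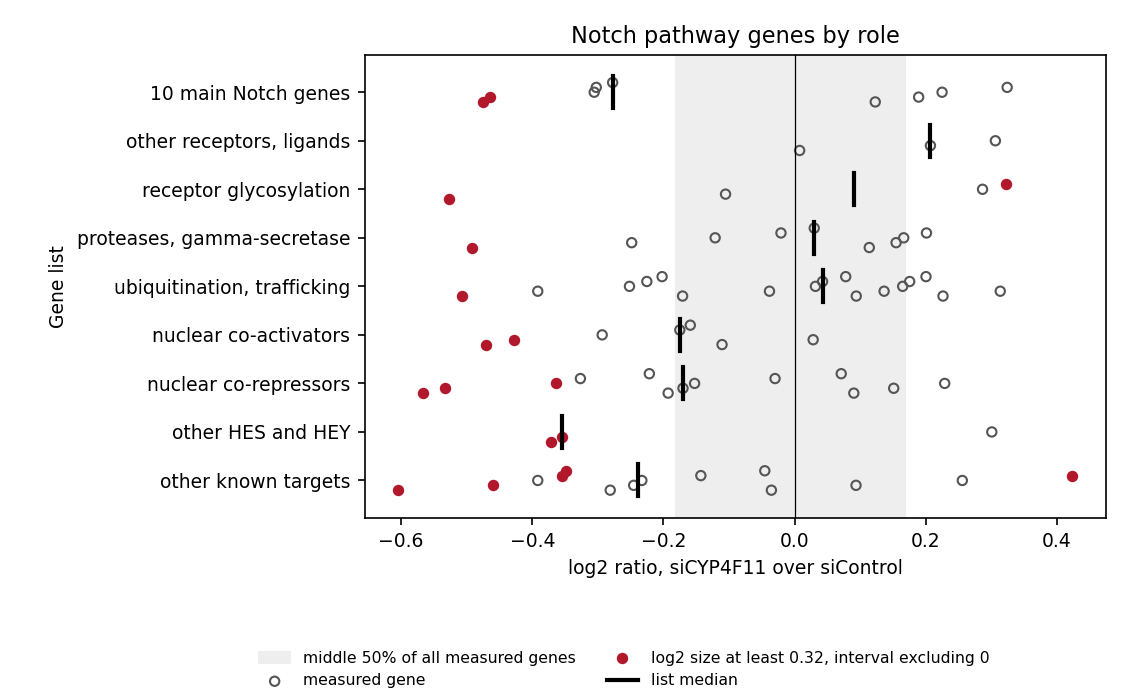
Log2 ratio of siCYP4F11 over siControl for each measured gene of the pathway lists, 1 row per list, with filled points for genes with a log2 size of at least 0.32 whose counting interval excludes 0, a bar for each list median and a grey band for the middle 50% of all measured genes (-0.18 to 0.17). The medians of the co-activators and the co-repressors, both at -0.17, and of the other known targets at -0.24 lie to the left of 0. That of the proteases at 0.03 lies near 0 and is at -0.0083 after the GC correction.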

How the data were processed

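Poly-A RNA of 1 siCYP4F11 and 1 siControl culture was made into dUTP strand-specific libraries, per the labels' protocols. The authors deposited whole-number read counts per gene, not normalised, with each gene model's length in bases, per the file headers. GRCh38, HISAT2 2.2.1, fastp, edgeR 4.0.16 and featureCounts 2.0.6 appear in the submitters' processing notes. Their roles and the strand setting are not given in the sources used here, so overlapping genes may hold each other's reads. All 58735 identifiers and coordinates were identical to GENCODE release 29, which gave transcripts. The number of further sample columns was 0.

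Effective library sizes came from TMM (edgeR 4.0.16, R 4.3.3), with factors of 1.004 for siCYP4F11 and 0.996 for siControl. Log2 ratios were taken after 0.5 was added to each count. Exact Clopper-Pearson bounds on the siCYP4F11 share gave their 95% intervals, and the Poisson distribution those of levels. All cover counting error only. No test was possible without replicates. Calculations ran in Python 3.11.15 with statsmodels 0.14.6, scipy 1.17.1 and pandas 2.3.3. They were tested on simulated Poisson counts with planted changes. The simulation held no GC trend and no variation between cultures, so it checks the arithmetic alone. Alternatives were total counts, DESeq2 1.42.0 size factors, upper-quartile scaling, 2 added to each count, other filters, and a lowess GC correction with a span of 0.3. The genes and lists were chosen with earlier results of these data known. All 10 genes were named, and of each list those past 0.32 or else the 2 largest. Others are marked as named after their values were seen, apart from marker genes, and the values of some genes are not reported here. The GC correction of lists, pairs of genes and the window was added after the data were seen. The entry NOTCH2NL matched no symbol. Sequences are from RefSeq, GRCh38.p14.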

Additional observations from a re-analysis of the deposited data

How the results depend on the processing

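NOTCH1 and NOTCH3 stayed lower by a log2 size of at least 0.32 under every alternative run, and the other 8 genes kept their sign. NOTCH3 ranged from -0.47 to -0.46 with other scalings and was at -0.34 with the GC correction. The count of Notch genes past 0.32 on the higher side was 0, but 1, JAG2, with total counts, DESeq2 size factors, upper-quartile scaling, the GC correction or no need for the interval to exclude 0. With no such need, measured genes past 0.32 numbered 1531 higher and 1905 lower, since the rule is laxer. Past 2-fold there were 98 higher and 175 lower. There were 345 and 476 with no filter on low counts, 5 and 19 at a mean of at least 5 CPM, and 50 and 103 among protein-coding genes alone, since more or fewer genes were counted. The median of the Notch genes went from -0.30 at a mean of at least 5 CPM to -0.08 with no filter. The mean was -0.11. No paired analysis was possible because each group has 1 library. With the GC correction, applied to gene pairs and lists after the data were seen, NOTCH3 over NOTCH2 no longer had an interval that excluded 1. RBPJ and JAG2 had intervals just above 0 with each of the 3 other scalings. Depth limits DLL1, HES1 and HEY1 most.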

Other observations

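NOTCH3 and CYP4F11 lie on the same arm of chromosome 19, with 711 kb between them. A window of 500 kb on either side of NOTCH3, chosen after the values were seen, held 10 other measured genes. Of these, 8 had ratios below 0, against 50.8% of all measured genes, and 4 had counting intervals wholly below 0, against 19.2%. After the GC correction the numbers were 6, against 50.2%, and 3, against 17.2%. WIZ, a zinc finger gene, was at -0.44 (-0.60 to -0.28), or -0.30 corrected, AKAP8L at -0.34 (-0.54 to -0.15), or -0.22 corrected, and AKAP8 at -0.16 (-0.31 to -0.02), or -0.11 (-0.26 to 0.04) corrected. CYP4F3 was the gene of the window with an interval above 0, with 121 counts in siCYP4F11 against 110 in siControl at 0.44 (0.06 to 0.83). These are values of 2 libraries, with no test.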
